A study of Mus musculus with 6 samples.

Results

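Star strands are the passenger arms of microRNA (miRNA) hairpins, named by an asterisk after the name of the other arm. The assays described here are all those of a mouse miRNA PCR array whose name ends in an asterisk, 119 of 709. Of the 119, 5 had a value in all 6 samples (4.20%) and 114 were given as Null in all 6. The 5 were let-7d*, miR-99b*, miR-106b*, miR-140* and miR-872*. They are called measured below, and an assay of the same name without the asterisk is called the guide.

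The samples were osteoclasts, the cells that resorb bone, which had been sorted magnetically from mouse bone marrow as OSCAR+CTR+ cells. By their labels, 3 samples belonged to the OCmiR-KD group (here knockdown), with osteoclast miRNAs knocked down, and 3 to the OCmiR-Intact group (here intact), with these miRNAs left in place. The sources used here do not state how the knockdown was made, its promoter or target, or the strain and age of the mice. The design text speaks of pooling RNA from 3 mice in each group. The 3 samples could therefore be separate mice or repeats of a single pool, and p-values cover only the spread between them, which may be technical.

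A miRNA gene is transcribed into a precursor with a hairpin. Drosha frees the hairpin and Dicer cuts off its loop, which leaves a duplex of the 5p and the 3p arm. An Argonaute protein keeps the guide, and the released passenger is usually degraded, so star strands tend to be scarce. Which arm is kept differs between miRNAs and tissues, and an arm first named as a star can turn out to be the more abundant. The strand whose 5′ end is paired less stably tends to be kept. The seed, bases 2 to 8, does most of the target recognition, so the arms of a hairpin address different messenger RNAs.

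The mature sequences of the 5 measured star strands show which strands the results rest on. They are given 5′ to 3′ as deposited with the assays, with the seed in capitals.
let-7d*: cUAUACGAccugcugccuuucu
miR-99b*: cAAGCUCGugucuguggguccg
miR-106b*: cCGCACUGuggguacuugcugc
miR-140*: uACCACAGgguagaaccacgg
miR-872*: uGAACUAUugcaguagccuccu

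The guides of the same names are given for comparison, again with the seed in capitals. Those of miR-140 and miR-872 were Null.
let-7d: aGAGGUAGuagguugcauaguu
miR-99b: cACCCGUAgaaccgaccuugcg
miR-106b: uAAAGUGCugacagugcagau
miR-140: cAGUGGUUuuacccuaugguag
miR-872: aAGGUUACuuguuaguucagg

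Each of the 5 star seeds was shared with 0 other assays of the array. The guides' seeds were shared more widely. That of let-7d stood in 9 other assays, 8 of them measured, that of miR-106b in 5 others, of which 1, miR-93, was measured, and that of miR-99b in miR-99a and miR-100, both measured. Nearest in sequence to let-7d* was let-7b*, at 4 edits, and each of the other 4 stars lay at least 7 edits from any other assay. The guide let-7d lay 2 edits from let-7a, which was measured, and whether its primer also reads relatives was not tested.

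All 5 measured stars were the 3p arm of their hairpin by RefSeq's mature sequences (build GRCm38.p6). Of the 119 star sequences, 103 matched a RefSeq mature miRNA, 64 as a 3p and 39 as a 5p arm. Of the 64, 5 were measured, and of the 39, 0 were. The measured stars began with C in 3 cases and with U in 2. Among the 114 Null stars 39 began with C, 37 with A, 22 with U and 16 with G. Of the 30 measured guides whose star was Null, 18 began with U. The median GC content was 57.1% in the measured and 47.8% in the Null stars, at a median length of 22 bases in both sets. In the first 4 bases, miR-106b* had 0 A or U and its guide 4, whereas let-7d* had 3 and its guide 2. miR-99b* had 2 against 1, miR-872* had 3 against 2, and miR-140* had 2 on both arms. With 5 measured stars these are descriptions only.

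The hairpins of miR-140 and miR-872, where the star arm had values and the guide had none, are given from RefSeq with the star strand in capitals.
miR-140: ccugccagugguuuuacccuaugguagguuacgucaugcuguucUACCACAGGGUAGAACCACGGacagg
miR-872: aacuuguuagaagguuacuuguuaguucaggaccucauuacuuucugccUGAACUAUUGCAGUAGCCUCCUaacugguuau

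In the 70-base miR-140 hairpin the guide starts at base 6 and the star at base 45. In the 81-base miR-872 hairpin they start at bases 11 and 50.

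In the genome (GRCm38.p6), let-7d* lies at chr13:48536024-48536045 on the minus strand, outside any protein-coding gene of the RefSeq table. miR-99b* lies at chr17:17830232-17830253 on the plus strand within the span of Spaca6, needed for fusion of sperm and egg. miR-106b* lies at chr5:138165746-138165767 on the minus strand within Mcm7, a subunit of the replicative helicase. miR-140* lies at chr8:107551288-107551308 on the plus strand within Wwp2, a ubiquitin ligase, and miR-872* at chr4:94665206-94665227 on the plus strand within Ift74, of the intraflagellar transport machinery. The table gives gene spans, so exons and introns were not told apart.

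Of these precursors, 3 stand within 10 kb of other miRNA genes. Beside let-7d, the guides let-7a and let-7f were measured while let-7a* and let-7f* were Null. Beside miR-106b, the guides miR-25 and miR-93 were measured while miR-93* was Null. Beside miR-99b, let-7e was measured, and miR-125a was Null on both arms. The miR-99b cluster held no other star assay of the array. In the let-7d and miR-106b clusters the measured star stood beside Null ones. With 4.20% of all 119 stars measured, that is no result about these clusters.

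Of the star assays 4.20% were measured, and of the whole array 13.4%, or 95 of 709. Plate and kind of assay moved together here. All 119 star assays stood on plate 2, where 5 of the 210 assays without an asterisk (2.38%) were measured, against 85 of 380 (22.4%) on plate 1. The share of measured stars thus lay under that of plate 1 and beside that of the other assays on their own plate. With no star assay on plate 1, star status and plate cannot be told apart in the comparison of stars with the guides, whose 97 of 107 assays stood on plate 1. No source used here states when a reading became Null, so Null is not taken as absence.

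**Figure D1:**
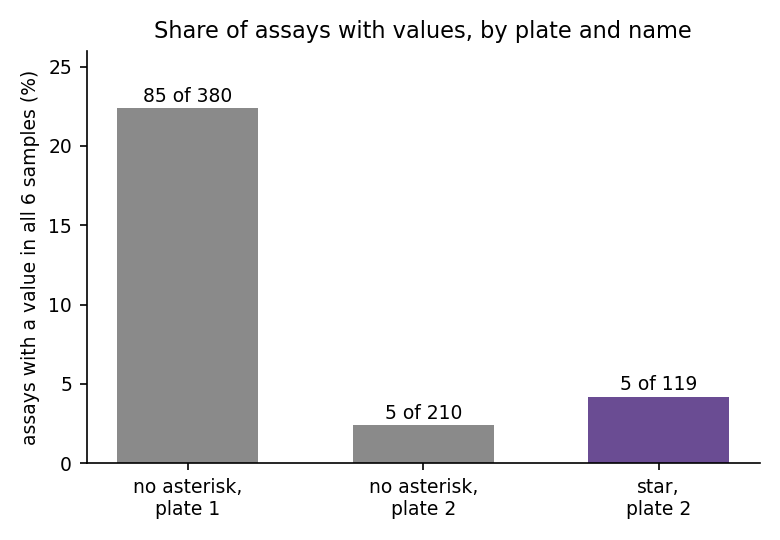
Share of assays with a value in all 6 samples (percent, vertical axis) for assays without an asterisk on plate 1 and plate 2 and for star assays, all on plate 2. The star bar (5 of 119) sits beside the low bar of its own plate (5 of 210), far under plate 1 (85 of 380).

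For 107 star assays the array held a guide of the same name. Both arms were measured in 3 pairs (let-7d, miR-99b and miR-106b), the star alone in 2 (miR-140 and miR-872), the guide alone in 30, and neither in 72. A star was therefore measured beside 9.09% of 33 measured guides and 2.70% of 74 Null guides, against 4.20% of all 119 stars. These shares rest on 3 and 2 stars, too few to compare. The other 12 star assays, such as miR-24-1* and miR-24-2*, had no guide of exactly their name, and all 12 were Null. For comparison, 74 hairpins had both arms on the array under -5p and -3p names. Both arms had values for 1 of them, miR-423, 1 arm for 11, and neither for 62.

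The guides that read earliest had Null stars, as did 30 of the 33 measured guides. The threshold cycle (Ct) is the number of PCR cycles needed to reach a fixed fluorescence, and a lower Ct stands for more template. The 5 earliest guides with a Null star were miR-200a, at a mean Ct of 19.9 ± 0.688 cycles in intact samples, let-7i at 20.9 ± 1.10, miR-200c at 21.2 ± 1.22, miR-148a at 21.3 ± 1.65 and miR-191 at 21.4 ± 0.0998 (SD, n = 3 each). They were also the 5 earliest of all 95 measured assays. The guides whose star was measured came later. miR-99b stood at 25.5 ± 0.286, let-7d at 26.1 ± 0.501 and miR-106b at 26.2 ± 0.639 cycles (SD, n = 3 each), ranks 19, 24 and 26 of the 33 measured guides. All 18 guides earlier than miR-99b had a Null star. With a Null star beside 30 of the 33 guides, such a run is a description and no result about early guides. Primers differ between assays, so the order is one of readings and not of abundance.

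**Figure D2:**
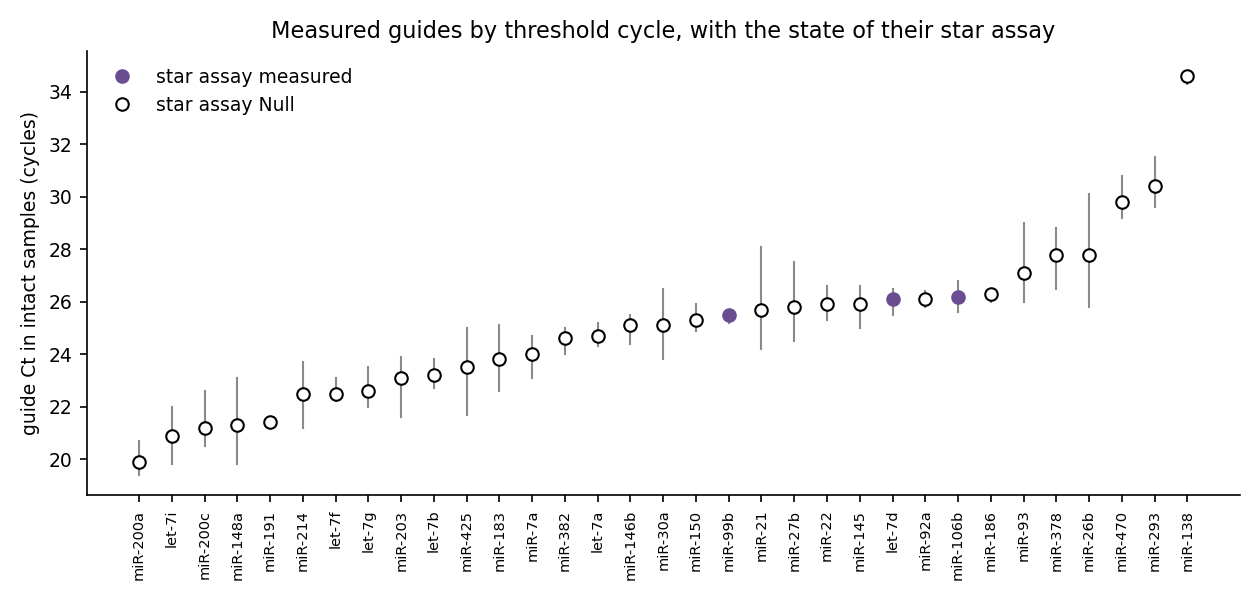
Mean Ct of each of the 33 measured guides in intact samples (cycles, vertical axis), ordered from earliest to latest, with grey lines from the lowest to the highest of the 3 samples. Filled points mark the 3 guides whose star assay was measured (miR-99b, let-7d and miR-106b), and the 18 guides to the left of miR-99b have a Null star.

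By precursor group, the let-7 and miR-98 list had 8 star assays, of which let-7d* was measured, although 6 of 6 guides of the same names were. In the miR-17-92, miR-106a-363 and miR-106b-25 clusters, which drive cell growth, 1 of 8 stars (miR-106b*) and 3 of 8 guides were measured. In the miR-99, miR-100 and miR-125 list miR-99b* was measured and miR-125b* was Null. None of the stars was measured in the miR-30 (0 of 5), miR-15 and miR-16 (0 of 3), miR-23, miR-24 and miR-27 (0 of 4) and miR-29 (0 of 3) families. Of their guides, 1 of 3, 0 of 3, 1 of 2 and 0 of 3 were measured, in that order. No star was measured in the neural (0 of 4), muscle and stromal (0 of 4) and Dlk1-Dio3 (0 of 13) lists. In the neural and the muscle and stromal lists 2 of 4 guides each were measured. With 4.20% of all 119 stars measured, a count of 0 in lists this small is no result about a list. In the Dlk1-Dio3 list, an imprinted cluster, 1 of 13 guides was measured.

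The myeloid list had 0 of 4 stars (miR-21*, miR-22*, miR-146b* and miR-378*) beside 4 of 4 guides, and the epithelial list 0 of 6 stars beside 4 of 6 guides. Markers of the sorted cells and of others were present as guides or single-named assays. Of 8 myeloid markers, 5 were measured, including miR-223, at mean intact levels of 3.88 to 7.39 log2 units above U6, and miR-142-3p, miR-155 and miR-146a were Null. Epithelial markers were measured in 4 of 6 cases at 5.97 to 9.84, stromal in 4 of 4 at 3.82 to 7.26, erythroid in 3 of 3 at -0.584 to 3.49, lymphoid in 2 of 2 at 1.53 to 4.45, and muscle in 2 of 3 at 1.52 to 4.06. The liver marker miR-122 stood at 6.90. The epithelial miR-200b and miR-141 and the muscle miR-133a were Null. Of all 590 assays without an asterisk, 15.3% were measured. The part of other cell types in the star values was not tested.

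Levels below are the deposited delta Ct with its sign turned, in log2 units above the reference read in the same sample and plate, the small nuclear RNA U6. U6 itself read at 29.257 to 31.179 cycles, whereas the median intact Ct of the 95 measured assays was 25.5. A level above U6 is thus a position against a reference that read late. A limit holds for each difference between groups. In all 5 measured stars and in the 3 measured guides, the knockdown values, put on a linear scale against U6 of plate 1, have a mean of 1 with a tolerance of 0.001, as they do in 88 of the 95 measured assays, and in 0 assays of the intact group. The stars stood on plate 2, yet it is U6 of plate 1 to which their knockdown means are set. Against U6 of their own plate these means ran from 0.919 (miR-99b*) to 1.73 (miR-106b*). The knockdown mean is therefore no reading of its own, and a lower knockdown level below says where the intact values lie relative to that set mean. The same limit holds for the p-values of these differences and for the separation of the groups, which are no separate evidence of a fall. The step that set these means was not identified.

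All 5 measured stars were lower in knockdown osteoclasts (limma, Benjamini-Hochberg adjusted p under 0.05 over the 95 assays), with differences of -6.70 to -3.30 log2 units. This is the common outcome on the array, where 84.2% of the 95 assays passed in that direction, 80 in number. The median difference was -3.87 over the 5 stars and -4.56 over the 90 measured assays without an asterisk. In each of the 5 stars the highest knockdown sample lay below the lowest intact one, as in 82.1% of the 95 assays. The stars' median intact level was 3.25 and that of the 90 others 4.27, and both sets had a median knockdown level of -0.12. The knockdown mean is set in all 5 stars and in 83 of the 90 others, so this likeness is no comparison of the sets.

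miR-99b* had the highest level of the 5. It stood at 6.72, 6.34 and 6.59 in the intact samples and at -0.10, 0.18 and -0.54 in the knockdown samples. The intact samples lie close together and 6.17 log2 units clear of the nearest knockdown sample. Its mean went from 6.55 ± 0.19 to -0.15 ± 0.36 (SD, n = 3 each), a difference of -6.70 (SE 0.47, limma adjusted p = 1.9e-05). The authors' deposited table gives its fold of intact over knockdown as 104. At a mean Ct of 23.1 cycles it was the 16th earliest of the 95 measured assays in intact samples.

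miR-872* stood at 4.55, 4.83 and 5.46 in intact and at -0.46, -1.07 and 1.54 in knockdown samples. The groups do not overlap, and knockdown sample 3 is the highest of its group. Its mean went from 4.95 ± 0.47 to 0.00 ± 1.36 (SD, n = 3 each), a difference of -4.95 (SE 0.75, limma adjusted p = 0.000461), or -5.71 without knockdown sample 3. Its guide, miR-872 on the same plate, was Null.

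miR-140* is the 3p arm of a precursor known for its part in cartilage. It stood at 3.83, 3.54 and 2.39 in intact and at -0.28, 0.17 and -0.14 in knockdown samples. Intact sample 3 is the lowest of its group and still lies above every knockdown sample. The mean went from 3.25 ± 0.76 to -0.08 ± 0.23 (SD, n = 3 each), a difference of -3.33 (SE 0.55, limma adjusted p = 0.000709). Its guide, on plate 1, was Null.

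let-7d* comes from the let-7 family, whose guides repress growth genes such as Hmga2. It stood at 2.93, 2.89 and 3.72 in intact and at 0.95, -1.38 and 0.07 in knockdown samples. The groups are 1.94 log2 units apart at their closest. The mean went from 3.18 ± 0.47 to -0.12 ± 1.17 (SD, n = 3 each), a difference of -3.30 (SE 0.69, limma adjusted p = 0.00246), or -2.67 without knockdown sample 2. Its guide let-7d went from 3.68 ± 0.17 to -0.60 ± 1.63, a difference of -4.27 (SE 0.82, limma adjusted p = 0.00156).

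miR-106b* comes from the miR-106b-25 cluster, whose guide miR-106b is known to repress the cell cycle inhibitor Cdkn1a. It stood at 2.67, 2.84 and 2.61 in intact and at -2.45, -3.33 and 2.30 in knockdown samples. Knockdown sample 3 lies just 0.31 below the lowest intact sample, while the other knockdown samples are far lower. The mean went from 2.71 ± 0.12 to -1.16 ± 3.03 (SD, n = 3 each), a difference of -3.87 (SE 1.35, limma adjusted p = 0.0271). The call depended on single samples, and the set mean ties the 3 knockdown values to each other. Leaving out any sample other than knockdown 3 gave an adjusted p of 0.0554 to 0.0931 in limma. The difference was -5.59 without knockdown sample 3 (limma adjusted p = 3.85e-05), -3.22 without knockdown sample 1 and -2.78 without knockdown sample 2. In knockdown sample 3, U6 of plate 2 read 0.880 cycles later than that of plate 1. Against U6 of plate 1, miR-106b* was at 2.67 on a linear scale in that sample and at 6.48 in the lowest intact one. The difference was then -4.11 (SE 1.06, limma adjusted p = 0.00646). Its guide miR-106b went from 3.58 ± 0.13 to -0.37 ± 1.23, a difference of -3.95 (SE 0.68, limma adjusted p = 0.000886).

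**Figure D3:**
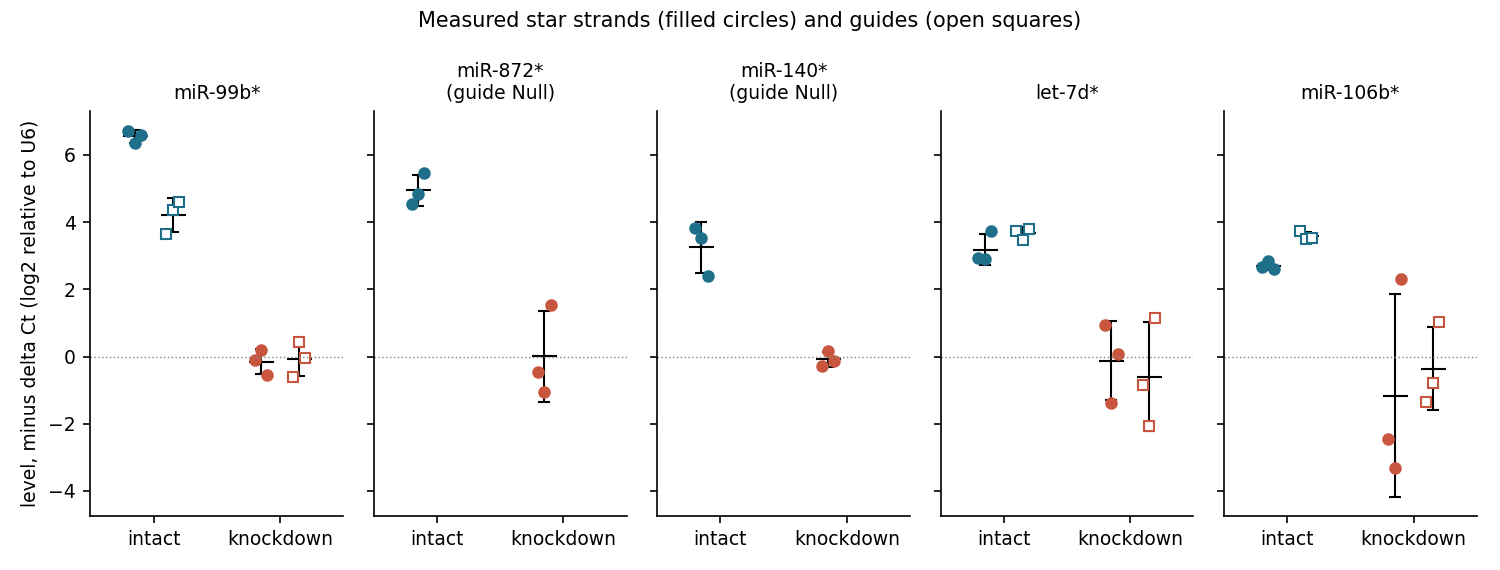
Level in each sample (sign-turned delta Ct, log2 units above U6) of the 5 measured star strands (filled circles) and, where measured, of their guides (open squares), intact in blue and knockdown in red, with mean and SD bars (n = 3). In each panel the star's intact points lie above its knockdown points, with miR-106b* the closest at 0.31 log2 units.

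The deposited Ct values behind these levels carry the same set knockdown mean, so they are no separate evidence of a difference and are given as a description. miR-99b* read at 22.54, 23.26 and 23.36 cycles in intact and at 31.28, 29.77 and 30.76 in knockdown samples, the widest separation of the 5. miR-106b* read at 26.59, 26.76 and 27.34 in intact and at 33.63, 33.28 and 27.93 in knockdown samples, the narrowest. The mean intact Ct of the 5 ran from 23.1 (miR-99b*) to 26.9 (miR-106b*), ranks 16 and 76 of the 95 measured assays, with miR-872* at 24.7 and both let-7d* and miR-140* at 26.4. The mean knockdown Ct, which follows U6 of plate 1 through the set mean, was 30.4 for miR-872*, 30.5 for miR-140*, 30.6 for let-7d* and miR-99b*, and 31.6 for miR-106b*.

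The direction of 3 of these differences depended on the reference. When each sample was centred on the mean Ct of the 95 measured assays, let-7d* stood at 0.94, miR-140* at 0.91 and miR-106b* at 0.38, none passing (limma adjusted p = 0.317, 0.317 and 0.835). miR-872* kept a negative difference of -0.71 without passing (limma adjusted p = 0.397). miR-99b* alone passed, at -2.46 (SE 0.67, limma adjusted p = 0.0232), below the mean change of the measured assays. In that scaling 20.0% of the 95 assays passed below the mean change and 20.0% above it, against 1 and 0 of the 5 stars. As 88 of the 95 knockdown means are set, a centred difference largely restates where an assay's intact level lies among the 95. Their median intact level was 4.25. miR-99b* (6.55) and miR-872* (4.95) lay above it, and miR-140* (3.25), let-7d* (3.18) and miR-106b* (2.71) below. After quantile normalization 0 of the 5 stars passed, against 5.26% of assays lower and 8.42% higher. In that setting miR-99b* was at -1.49 and did not pass (unadjusted p of limma 0.0277, adjusted p = 0.154).

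**Figure D4:**
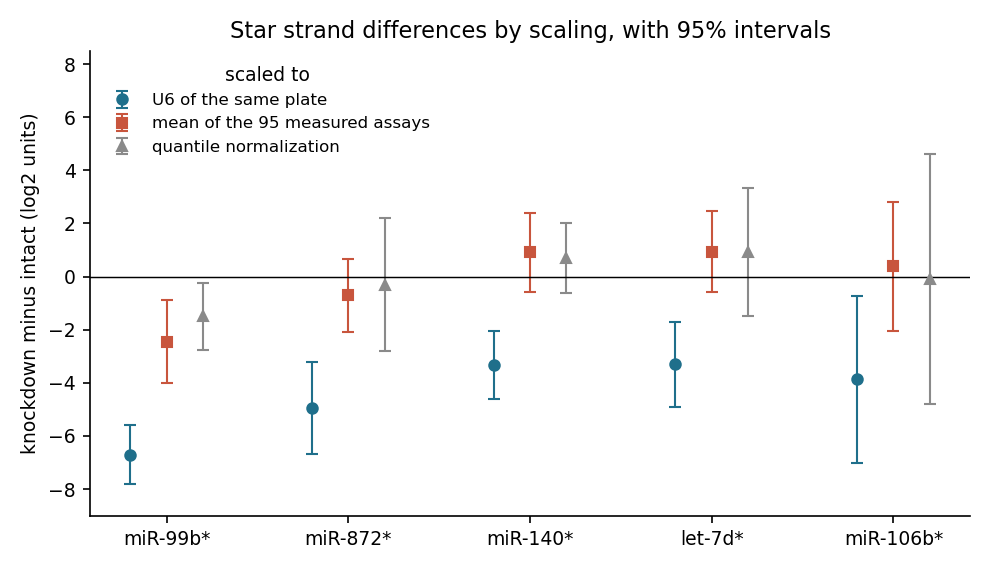
Difference of knockdown minus intact (log2 units, vertical axis) for the 5 measured star strands under 3 scalings, with 95% intervals from limma. Relative to U6 (blue circles) all 5 lie below 0. Centred on the 95 measured assays (red squares), miR-99b* at -2.46 has its interval below 0, and let-7d*, miR-140* and miR-106b* lie above 0.

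Star and guide could be set side by side in 3 pairs, with the star on plate 2 and the guide on plate 1. The gap, star level minus guide level, has the same sample for both arms but a U6 reading from each plate. The Ct of U6 on plate 2 minus that on plate 1 was -0.611 cycles in knockdown sample 2, 0.880 in knockdown sample 3 and -0.394 in intact sample 3. In the other samples the plates lay within 0.062 cycles.

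The miR-99b pair was the one in which the star read above the guide in intact osteoclasts. Its gap was 3.06, 1.97 and 1.98 log2 units in the intact samples and 0.50, -0.26 and -0.51 in the knockdown samples. The star read above the guide in all 3 intact samples, and the groups do not overlap. The intact mean was 2.34 ± 0.63 and the knockdown mean -0.09 ± 0.52 (SD, n = 3 each), so the gap differed by -2.43. A two-sided exact permutation test gave p = 0.1, which is the lowest possible with 3 against 3, and 0.3 after Benjamini-Hochberg adjustment over the 3 pairs. On the linear scale the intact gap is a star reading 5.06 times the guide's, a ratio that also holds any difference between the primers. With U6 of plate 1 for both arms, the intact gap was 2.47 ± 0.58. After quantile normalization it was 1.53 ± 0.34, a star reading 2.9 times the guide's, and the difference between groups was -1.61. Because the knockdown means of both arms are set as described above, the difference largely restates the intact gap.

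The let-7d pair had the star slightly below the guide in intact samples, with gaps of -0.81, -0.60 and -0.08. In knockdown samples the gap was 1.80, 0.70 and -1.08, which spans the intact range. The means were -0.50 ± 0.38 and 0.47 ± 1.45 (SD, n = 3 each), a difference of 0.97 (exact permutation p = 0.4, two-sided, and 0.6 adjusted over the 3 pairs). The knockdown means of both arms are set here too, so this difference is no separate reading of a change. Within the knockdown group the arms were ordered differently. let-7d* was highest in sample 1 and let-7d in sample 3. Leaving out knockdown sample 1 brought the difference to 0.31, and leaving out knockdown sample 3 brought it to 1.75.

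The miR-106b pair also had the star below the guide in intact samples, with gaps of -1.06, -0.65 and -0.91. In knockdown samples it was -1.11, -2.54 and 1.28, so that sample 3 lies above and sample 2 below all others. The means were -0.87 ± 0.21 and -0.79 ± 1.93 (SD, n = 3 each), a difference of 0.08 (exact permutation p = 1, two-sided). With U6 of plate 1 for both arms the difference was -0.16, without knockdown sample 2 it was 0.96, and without knockdown sample 3 it was -0.95. The star thus read below the guide in all 3 intact samples. The difference between groups changed direction between settings. Because the knockdown means of both arms are set, it is no separate reading of a change. Both arms were highest in knockdown sample 3.

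**Figure D5:**
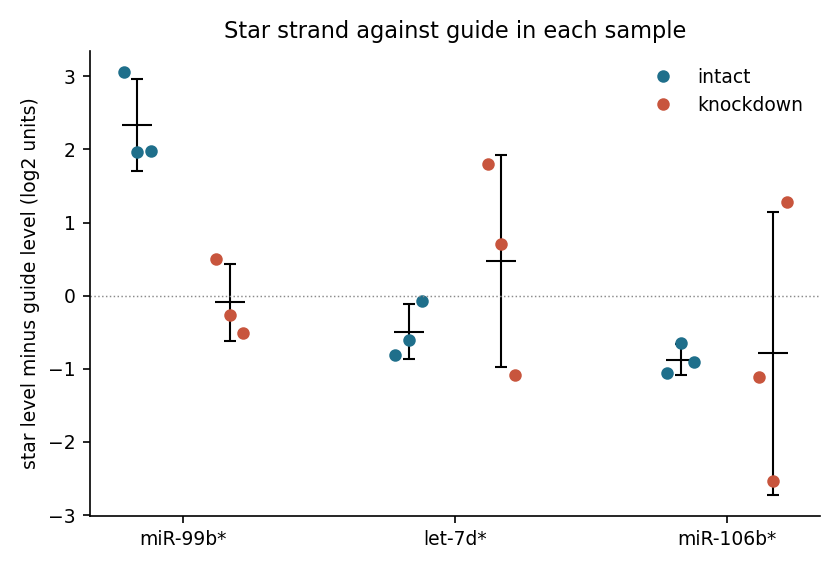
Star level minus guide level (log2 units, vertical axis) in each intact (blue) and knockdown (red) sample for the 3 pairs with both arms measured, with mean and SD bars (n = 3). For miR-99b* the intact gaps (1.97 to 3.06) lie clear of the knockdown gaps, and for let-7d* and miR-106b* the knockdown gaps span the intact ones.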

How the data were processed

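The 6 samples were run on SYBR Green PCR arrays for miRNAs, for 40 cycles after QuantiMir reverse transcription, per the labels' protocols. The authors deposited Ct values per well and delta Ct values on a log2 scale. Ct minus delta Ct was checked to equal the Ct of 1 well per plate and sample, taken as U6. They also deposited a fold table of intact over knockdown. For 48 wells of row E, IDs held as scientific notation were restored. Of 709 assays, 95 had values in all 6 samples and 614 in 0.

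Knockdown was compared with intact on minus delta Ct with limma 3.58.1 in R 4.3.3 (lmFit, eBayes without trend, no covariate, Benjamini-Hochberg adjustment over the 95 assays, threshold 0.05). Assays needed a Ct under 35 in at least 3 samples, which all 95 met. Gaps were compared by exact two-sided permutation tests (scipy 1.17.1). The fit was tested on simulated data with known shifts. Alternatives were centring on the measured assays, quantile normalization, U6 of plate 1, a Ct limit of 32, a trend in eBayes, the replicate block and leaving out each sample. A PCR array has no read depth, so the number of samples limits the precision.

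Named were every measured star assay and its guide, the 5 earliest guides with a Null star, and the measured members of the precursor lists. Other names were chosen after their values were seen. The members and lists were chosen with earlier results of these data known. RefSeq sequences were matched by identity of the mature sequence. Among the star assays, 6 share their whole sequence with another star assay, all of them Null, namely let-7a* with let-7c-2*, miR-297a* with miR-297c*, and miR-467a* with miR-467d*.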

Additional observations from a re-analysis of the deposited data

How the results depend on the processing

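Of the 5 stars lower in knockdown, 1 passed when samples were centred on the measured assays and 0 after quantile normalization. Over all assays the counts in both directions together were 38 and 13 in place of 80. All 80 were lower in knockdown. The 38 of the centred setting were 19 lower and 19 higher, and the 13 after quantile normalization were 5 lower and 8 higher. Centred, let-7d* was at 0.94, miR-106b* at 0.38, miR-140* at 0.91 and miR-872* at -0.71. After quantile normalization let-7d* was at 0.93, miR-140* at 0.71, miR-99b* at -1.49, miR-106b* at -0.09 and miR-872* at -0.30. The cause was not tested. All 5 stars passed with U6 of plate 1 throughout, a Ct limit of 32 or a trend in eBayes. Leaving out 1 sample gave 4 to 5 star calls and 75 to 81 over all assays. It gave differences of -3.84 to -2.67 for let-7d*, -6.87 to -6.51 for miR-99b*, -5.59 to -2.78 for miR-106b*, -3.76 to -3.05 for miR-140* and -5.71 to -4.41 for miR-872*. The knockdown minus intact difference in the gap of the miR-106b pair was -0.16 with U6 of plate 1 and -0.16 after quantile normalization, and between -0.95 and 0.96 when 1 sample was left out. The same differences of the let-7d and miR-99b pairs kept their sign in every setting run, that of let-7d between 0.31 and 1.75. The knockdown means of both arms are set in these pairs, so a kept sign is no support for a change.

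Same-numbered samples correlated at 0.025, 0.101 and 0.081 in their deviations over 95 assays, so the numbers were not taken to pair them. With the replicate block, 5 stars and 82 assays passed.

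Ignoring locus numbers and arm endings matched 11 more stars, all Null, and raised the pairs with the guide alone measured from 30 to 38.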
